A study of Mus musculus with 4 samples.

Results

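The 9 genes described here, Ezh1, Ezh2, Eed, Suz12, Bmi1, Cbx2, Cbx7, Cbx8 and Ring1, encode subunits of the Polycomb repressive complexes PRC1 and PRC2, and were chosen by symbol from the 24346 genes listed in each library, where all 9 were found. Polyadenylated RNA of HFSCs, the cells that grew from CD49f-positive and CD34-positive cells sorted from dorsal skin of 4-week-old C3H/HeN mice, was sequenced in 4 libraries. The 10p-HFSCs (2 libraries) had been passaged 10 times and the 48p-HFSCs (2 libraries) 48 times, all in the serum-free medium M-CnT, without a genetic change or other treatment named in the labels. Both groups descend from sorted cells kept as passaged cultures, and the labels do not state whether replicates were separate cultures, so p-values measure the spread between these libraries, which may be technical.

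PRC2 places methyl groups on a lysine of histone H3 through its catalytic subunit, which is either Ezh2 or Ezh1, and needs Eed and Suz12 for this activity. PRC1 attaches ubiquitin to histone H2A through Ring1 or its paralog Rnf2, paired with a Pcgf protein such as Bmi1, and in its canonical form carries a Cbx protein whose chromodomain binds the mark of PRC2. In epidermal stem cells the complexes are known for keeping the Ink4 locus and differentiation genes repressed.

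Of the 9 genes, 1 was called higher and 2 lower in 48p-HFSCs. Ezh1, the alternative catalytic subunit of PRC2, rose by 1.09 on the log2(FPKM + 1) scale, while Bmi1 and Cbx7 of PRC1 fell by 1.41 and 1.19. FPKM scales the reads of a gene by its length and by the size of the library, so that levels can be compared between genes. Genes were called where the limma adjusted p-value was under 0.05 and the log2 difference was 1 or more in size. Among the 11018 genes tested with the same rule, 19.9% were called in either direction, 10.8% higher and 9.15% lower, which corresponds to 1189 and 1008 genes, or 623 and 812 after rescaling to TPM. Nothing particular to the 9 genes as a set was read from their count of 3. Their median log2 difference was -0.41, beside -0.03 over all genes tested. All 3 calls were lost when each library was rescaled to TPM, without the filter on low values, or without either 10p-HFSC library.

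The 250 bases before the RefSeq start (GRCm38.p6) are shown for the 3 called genes and for Ezh2, the paralog of Ezh1. The Cbx7 and Ezh2 sequences lie before RefSeq starts that are inside the spans GENCODE gives these genes. Capitals mark the letters CCAAT on either strand, and an E2F octamer (TTTGGCGC, TTTCCCGC or TTTCGCGC, either strand) would be marked in the same way.
Ezh1, minus strand of chr11:101226464-101226713: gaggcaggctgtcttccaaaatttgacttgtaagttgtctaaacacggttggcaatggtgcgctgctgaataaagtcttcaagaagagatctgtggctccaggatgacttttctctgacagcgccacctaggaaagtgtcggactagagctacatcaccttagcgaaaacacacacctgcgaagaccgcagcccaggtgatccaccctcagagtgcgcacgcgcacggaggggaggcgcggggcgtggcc
Ezh2, minus strand of chr6:47595031-47595280: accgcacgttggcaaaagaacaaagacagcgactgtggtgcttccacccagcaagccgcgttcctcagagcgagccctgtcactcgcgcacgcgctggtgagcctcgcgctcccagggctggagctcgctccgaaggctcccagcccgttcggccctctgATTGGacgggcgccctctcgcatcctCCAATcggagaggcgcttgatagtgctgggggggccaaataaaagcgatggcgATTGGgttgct
Bmi1, plus strand of chr2:18676768-18677017: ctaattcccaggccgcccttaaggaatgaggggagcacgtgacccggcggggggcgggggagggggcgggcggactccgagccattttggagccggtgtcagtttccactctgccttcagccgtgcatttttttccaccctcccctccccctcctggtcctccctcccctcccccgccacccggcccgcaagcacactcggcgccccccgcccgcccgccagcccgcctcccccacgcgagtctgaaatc
Cbx7, minus strand of chr15:79932647-79932896: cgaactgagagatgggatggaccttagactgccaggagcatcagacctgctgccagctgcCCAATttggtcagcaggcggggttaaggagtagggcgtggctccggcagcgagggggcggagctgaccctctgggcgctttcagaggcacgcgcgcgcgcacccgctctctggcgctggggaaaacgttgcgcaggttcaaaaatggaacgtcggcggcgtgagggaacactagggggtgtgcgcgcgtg
The letters CCAAT occurred 3 times before Ezh2, first at base -90 from the start, and 1 time before Cbx7, and did not occur before Ezh1 or Bmi1. Of 27025 promoters of the same length, 34.5% held them. An E2F octamer was found in 1 of the 8 promoters of this set, that of Suz12 at base -219, and in 1.59% of all promoters. All 8 promoters held more CG pairs than the median of 6, from 12 for Eed to 37 for Suz12, with 14 for Ezh1, 23 for Ezh2, 21 for Bmi1 and 23 for Cbx7. These matches are descriptions of the letters only.

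The libraries were of unequal depth and make-up. Relative depth, estimated from the modal ratio between libraries of FPKM values under 0.3, ran from 46.7% in replicate 2 of 48p-HFSCs to 100% in replicate 1 of 10p-HFSCs, and summed FPKM was 1414953 in the former and 581516 in the latter, the highest and lowest of the 4. Replicate 2 of 48p-HFSCs held more signal from short transcripts, with a median log2 difference from replicate 1 of 0.865 for transcripts under 1000 bases and -0.252 for those over 4000, and the 10p-HFSC replicates differed in the same direction (0.378 and -0.189). The longest transcripts of the 9 genes measured 2034 (Ring1) to 4373 bases (Suz12). Keratinocyte markers were high in every library, with Krt5 at least at 1473 and Krt14 at least at 1217 FPKM. All 6 keratinocyte markers were tested, 2 (Itga6 and Itgb4) were called higher, and the 6 summed to 3472 and 2874 FPKM in the early libraries and to 12480 and 7913 in the late ones. Of the bulge stem cell markers, Cd34 did not exceed 0.234 and Lhx2 did not exceed 0.024 FPKM in any library. The cells were sorted for CD34, and the study reported most of them as CD34-immunopositive at both passage numbers. The other 2 bulge markers were tested. Sox9 was called lower (45.6 and 44.2 against 20.2 and 8.31 FPKM). Krt15 was not called (136 and 82.6 against 425 and 18.8 FPKM). By real-time PCR, the study reported Lhx2 and Sox9 as significantly increased at the late passage number, and Cd34 and Krt15 as maintained. The Sox9 values given here went in the opposite direction, and Lhx2 was listed at 0 in both late libraries. The cause of this difference was not tested. Of 8 fibroblast markers only Col1a2 passed the filter, and the 8 summed to 68.9 and 60.2 FPKM in 10p-HFSCs and to 0.186 and 0.242 in 48p-HFSCs. Nearly all of the sum in 10p-HFSCs was Col1a2 (67.6 and 59.3 FPKM), and Dcn, Lum and Thy1 were listed at 0 in all 4 libraries. Of 5 leukocyte markers only Cd68 passed, and the 5 summed to 7.32 and 6.83 FPKM in 10p-HFSCs and to 53.3 and 78.8 in 48p-HFSCs. Nearly all of this was Cd68 (7.30 and 6.81 against 53.2 and 78.7 FPKM). Ptprc did not exceed 0.071 and Adgre1 0.019 FPKM in any library, with Cd3e and Tyrobp listed at 0. Of 6 melanocyte markers only Tyr passed, with sums of 1.503 and 1.43 against 4.06 and 11.9, and Dct listed at 0. Of 4 endothelial markers only Pecam1 passed, with sums of 2.54 and 2.31 against 1.37 and 0.292. Their part in the differences below was not tested, and in bulk RNA fewer cells of a type and less RNA per cell cannot be told apart.

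**Figure D1:**
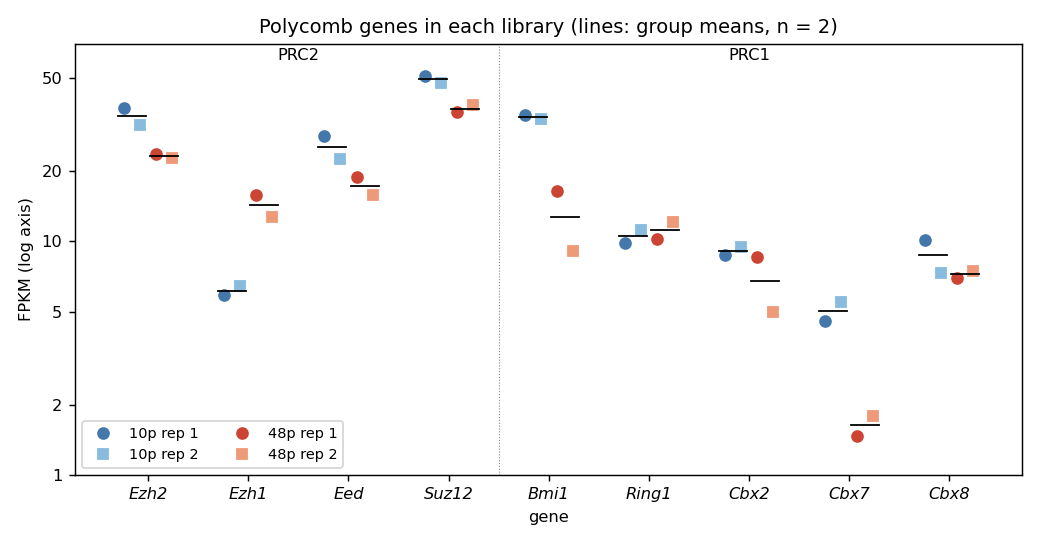
FPKM of the 9 Polycomb genes (x axis) on a log axis, with 1 point for each library (circles, replicate 1, and squares, replicate 2, in blue for 10p-HFSCs and red or orange for 48p-HFSCs) and black lines at the group means. Both 48p-HFSC libraries lie above both 10p-HFSC libraries for Ezh1, and below them for Ezh2, Eed, Suz12, Bmi1, Cbx2 and Cbx7.

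Among the PRC2 genes, Ezh1 was the only one called. Ezh1, on the minus strand of chromosome 11 of mm10 from 101191115 to 101226463, was at 5.90 and 6.41 FPKM in replicates 1 and 2 of 10p-HFSCs and at 15.8 and 12.8 FPKM in those of 48p-HFSCs. Both late libraries thus lay above both early ones, and the gap exceeded the difference between replicates in either group. The mean level went from 6.15 ± 0.36 to 14.3 ± 2.13 FPKM (SD, n = 2 each), a ratio of means of 2.32, and the log2 difference was 1.09 (standard error 0.27, 95% interval 0.42 to 1.75, limma adjusted p = 0.040). By its level Ezh1 stood at the 30.3rd and 33.5th percentile of the tested genes in 10p-HFSCs and at the 58.6th and 52.9th in 48p-HFSCs. The call did not hold without replicate 1 of 48p-HFSCs, where the log2 difference was 0.94, nor without replicate 1 or 2 of 10p-HFSCs (limma adjusted p = 0.41 and 0.32). Under rescaling to TPM the log2 difference of Ezh1 was 0.58 and did not pass the test (limma adjusted p = 0.62). The median of all tested genes moved to -0.56 there, and relative to that median Ezh1 was 1.14 higher, beside 1.12 without rescaling.

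Ezh2, the catalytic subunit that dominates in dividing cells, was at 37.1 and 31.6 FPKM in 10p-HFSCs and at 23.7 and 22.8 FPKM in 48p-HFSCs. The groups did not overlap, but the log2 difference of -0.54 (95% interval -1.14 to 0.06) did not pass the test (limma adjusted p = 0.17). Eed, which binds the methylated lysine and stimulates the enzyme, was at 28.2 and 22.6 FPKM in 10p-HFSCs and at 18.9 and 15.7 FPKM in 48p-HFSCs, a log2 difference of -0.52 (95% interval -1.17 to 0.13, limma adjusted p = 0.20). Suz12, the scaffold on which the core complex assembles, had the highest level of the 9 genes in every library, with 51.1 and 47.8 FPKM in 10p-HFSCs and 35.7 and 38.2 FPKM in 48p-HFSCs. Its log2 difference was -0.41 (95% interval -1.0024 to 0.18, limma adjusted p = 0.26). The 3 core genes Ezh2, Eed and Suz12 therefore had group means that differed by ratios of 1.48, 1.47 and 1.34 without passing the test, and all 3 intervals include 0, which does not show that the levels were equal. In GENCODE each of the 3 shares 174 to 261 exon bases with a gene on the opposite strand.

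Within each library, the 2 catalytic paralogs drew closer in level. The ratio of Ezh2 to Ezh1 was 6.30 and 4.93 in the early libraries and 1.501 and 1.79 in the late ones. On the log2 scale the mean ratio went from 2.48 ± 0.25 to 0.71 ± 0.18 (SD, n = 2 each), a difference of -1.77 that is larger than the spread within either group. The exact permutation test over libraries gave p = 0.33 (two-sided), the smallest value that 2 libraries against 2 can give. A ratio within a library does not depend on scaling between libraries. It can depend on transcript length, which was 4207 bases for Ezh1 and 2787 for Ezh2, and the ratios given here were not corrected for this. The summed level of Ezh1 and Ezh2 was 43.0 and 38.0 FPKM in 10p-HFSCs and 39.45 and 35.55 FPKM in 48p-HFSCs, where the groups overlapped, and Ezh1 made up 13.7% and 16.9% of it in the early libraries and 39.99% and 35.9% in the late ones.

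In the catalytic module of PRC1, Bmi1 fell while Ring1 did not pass the test. Bmi1, the Pcgf protein known for repressing the Ink4 locus, lies on the plus strand of chromosome 2 from 18677018 to 18686629. It was at 34.7 and 33.5 FPKM in 10p-HFSCs and at 16.3 and 9.11 FPKM in 48p-HFSCs. The early libraries were close to each other and both late libraries lay below them, with replicate 2 of 48p-HFSCs lowest. The mean went from 34.1 ± 0.87 to 12.7 ± 5.12 FPKM (SD, n = 2 each), 2.68-fold lower by the ratio of means, and the log2 difference was -1.41 (standard error 0.33, 95% interval -2.22 to -0.60, limma adjusted p = 0.034). Without replicate 1 of 10p-HFSCs the limma adjusted p was 0.35 and without its replicate 2 it was 0.30, while leaving out either 48p-HFSC library kept the call at log2 differences of -1.80 and -1.02. After rescaling to TPM its log2 difference was -1.96, which did not pass the test (limma adjusted p = 0.051). Bmi1 went from the 78.4th and 77.1st percentile of the tested genes in 10p-HFSCs to the 59.9th and 45.1st in 48p-HFSCs.

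Ring1, a ubiquitin ligase of PRC1, was at 9.80 and 11.2 FPKM in 10p-HFSCs and at 10.2 and 12.1 FPKM in 48p-HFSCs. The groups overlapped, and the log2 difference of 0.07 (95% interval -0.58 to 0.73, limma adjusted p = 0.86) changed sign under rescaling to TPM (-0.47), with correction for transcript length and GC content (-0.11) and without replicate 1 of 10p-HFSCs (-0.015) or replicate 2 of 48p-HFSCs (-0.036). Its paralog Rnf2 was at 20.2 and 19.6 FPKM in 10p-HFSCs and at 17.6 and 19.7 FPKM in 48p-HFSCs, with a log2 difference of -0.09 (limma adjusted p = 0.81). The ratio of Ring1 to Rnf2 was 0.486 and 0.571 in the early libraries and 0.579 and 0.613 in the late ones, a log2 difference of 0.18 without overlap that was 0.061 without replicate 1 and 0.29 without replicate 2 of 10p-HFSCs. Pcgf2, the closest paralog of Bmi1, was at 16.1 and 20.4 FPKM in 10p-HFSCs and at 18.5 and 24.8 FPKM in 48p-HFSCs, with a log2 difference of 0.23 (limma adjusted p = 0.58) that turned to -0.33 under rescaling to TPM. The ratio of Bmi1 to Pcgf2 was 2.16 and 1.64 in the early libraries and 0.883 and 0.367 in the late ones, so that Bmi1 was the higher of the pair in both early libraries and the lower in both late ones. The mean log2 ratio differed by -1.73 between groups (exact permutation test, two-sided, p = 0.33, the smallest possible), by -1.09 without replicate 2 of 48p-HFSCs and by -2.36 without replicate 1.

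The other Pcgf genes define the variant forms of PRC1. The 6 Pcgf genes summed to 158 and 165 FPKM in 10p-HFSCs and to 108 and 109 FPKM in 48p-HFSCs, and the share of Bmi1 in this sum was 22.0% and 20.3% against 15.2% and 8.32%. Pcgf6, the subunit of a form that binds promoters of germ cell genes, was named here after its values were seen. It was at 40.3 and 48.1 FPKM in 10p-HFSCs and at 24.2 and 14.4 FPKM in 48p-HFSCs, a log2 difference of -1.19 that missed the threshold (limma adjusted p = 0.051).

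Of the Cbx genes, which supply the chromodomain of canonical PRC1, Cbx7 fell and Cbx2 and Cbx8 did not pass the test. Cbx7, on the minus strand of chromosome 15 from 79915807 to 79971119, was at 4.54 and 5.51 FPKM in 10p-HFSCs and at 1.47 and 1.79 FPKM in 48p-HFSCs. Both late libraries lay below both early ones. The mean went from 5.03 ± 0.68 to 1.63 ± 0.23 FPKM (SD, n = 2 each), 3.08-fold lower by the ratio of means, and the log2 difference was -1.19 (standard error 0.26, 95% interval -1.84 to -0.54, limma adjusted p = 0.029). At these low levels the 1 added to each FPKM makes the log2 difference smaller, and with 0.1 added it was -1.57. After rescaling to TPM it was -1.70, which did not pass the test (limma adjusted p = 0.10). Without replicate 1 or 2 of 10p-HFSCs the limma adjusted p was 0.22 and 0.25, while leaving out either 48p-HFSC library kept the call. Cbx7 had the lowest level of the 9 genes in every library, and in 48p-HFSCs it stood at the 7.56th and 14.7th percentile of the tested genes. In GENCODE it shares 100 exon bases with Apobec3 on the opposite strand, and no strand setting for the counting was found in the sources used here.

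Cbx2 was at 8.71 and 9.42 FPKM in 10p-HFSCs and at 8.54 and 4.97 FPKM in 48p-HFSCs. The groups did not overlap by a small margin, since replicate 1 of 48p-HFSCs was close to the early libraries, and the log2 difference was -0.41 (95% interval -1.22 to 0.39, limma adjusted p = 0.39). Without replicate 2 of 48p-HFSCs it was -0.08, and without replicate 1 it was -0.75. Cbx8 was at 10.1 and 7.34 FPKM in 10p-HFSCs and at 6.98 and 7.47 FPKM in 48p-HFSCs, where the groups overlapped, with a log2 difference of -0.23 (95% interval -0.93 to 0.47, limma adjusted p = 0.59). Without replicate 1 of 10p-HFSCs it was -0.02. The ratio of Cbx7 to Cbx2 was 0.522 and 0.585 in the early libraries and 0.172 and 0.36 in the late ones. The ratio of Cbx7 to Cbx8 was 0.448 and 0.75 against 0.21 and 0.24, and neither ratio overlapped between groups (exact permutation test, two-sided, p = 0.33, the smallest possible). The mean log2 ratio of Cbx7 to Cbx2 differed by -1.15, and by -0.62 without replicate 1 of 48p-HFSCs. Cbx2 and Cbx8 lie side by side on chromosome 11, Cbx2 from 119022962 to 119031270 and Cbx8 from 119036305 to 119040969, on opposite strands.

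Cbx6, which belongs to the same family, fell from 30.5 and 33.7 FPKM in 10p-HFSCs to 8.75 and 8.91 FPKM in 48p-HFSCs, a difference of -1.75 on the log2 scale (standard error 0.24, limma adjusted p = 0.0068), and the call was lost without replicate 1 or 2 of 10p-HFSCs (0.17 and 0.19).

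**Figure D2:**
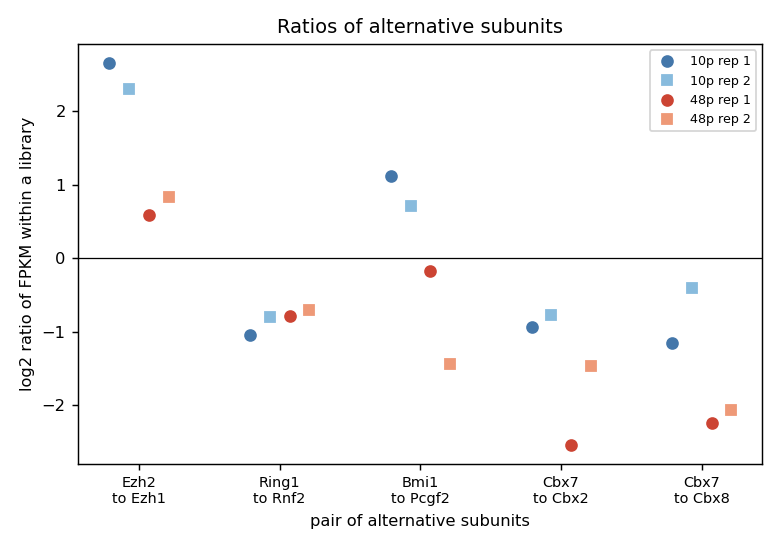
Log2 ratio of FPKM between alternative subunits within each library (y axis) for 5 pairs (x axis), with circles for replicate 1 and squares for replicate 2, 10p-HFSCs in blue and 48p-HFSCs in red or orange. The ratio of Ezh2 to Ezh1 lies at 2.655 and 2.302 in the early libraries and at 0.59 and 0.84 in the late ones, and the ratios of Cbx7 to Cbx2 and to Cbx8 are lower in both late libraries than in both early ones.

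In order of mean level in 10p-HFSCs the 9 genes ran Suz12, Ezh2, Bmi1, Eed, Ring1, Cbx2, Cbx8, Ezh1 and Cbx7. The values of Ezh2 and Bmi1 overlapped there, as did those of Ring1 and Cbx2 with Cbx8. In 48p-HFSCs the order was Suz12, Ezh2, Eed, Ezh1, Bmi1, Ring1, Cbx8, Cbx2 and Cbx7, with overlapping values for Eed, Ezh1 and Bmi1, for Bmi1 and Ring1, and for Cbx8 and Cbx2. In 6 of the 9 genes both 48p-HFSC libraries lay below both 10p-HFSC libraries, and in 1 gene above. Over all genes tested, 34.3% lay below and 31.7% above without overlap, 65.9% in all. The summed FPKM of the 9 genes was 190.2 and 175.3 in the early libraries and 137.5 and 124.9 in the late ones.

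**Figure D3:**
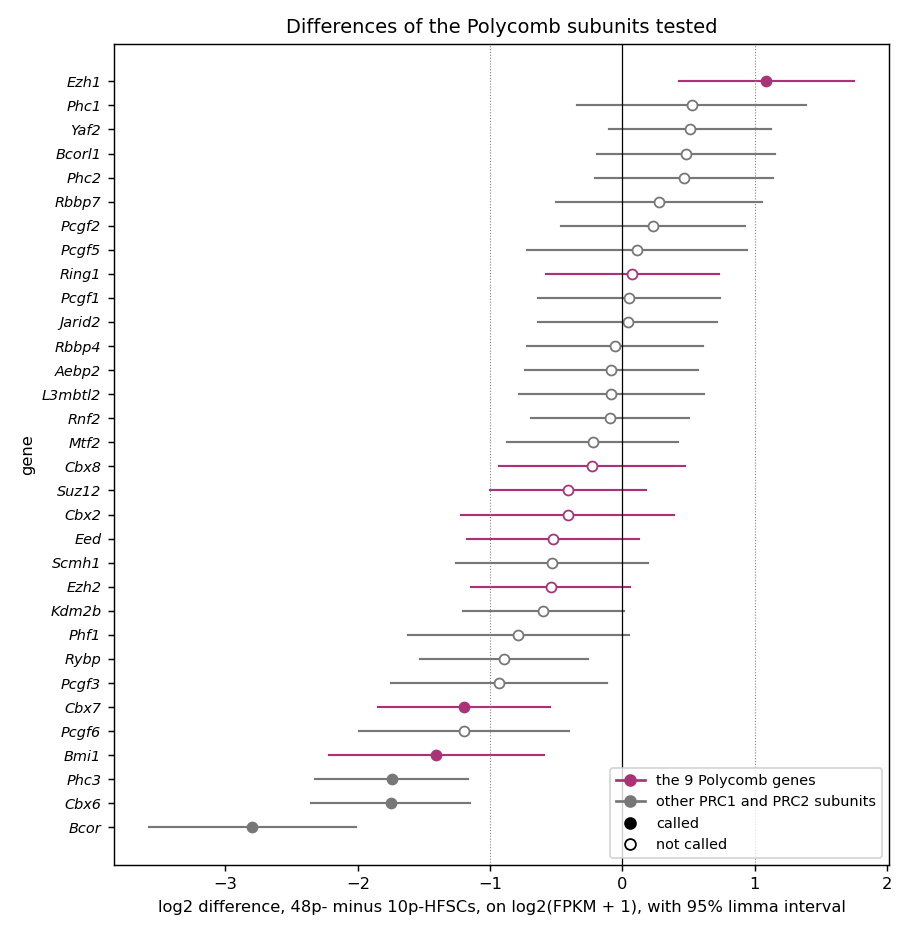
Log2 difference between 48p- and 10p-HFSCs on the log2(FPKM + 1) scale (x axis) with its 95% limma interval, for the 9 Polycomb genes (purple) and 23 other PRC1 and PRC2 subunits (grey), in order of the difference. Filled points were called, and dotted lines mark a difference of 1 either way. Ezh1 is the only called gene to the right of 0, and Bmi1, Cbx7, Phc3, Cbx6 and Bcor are called to the left. The point of Bcor depends on the 1 added to FPKM, since it was listed at 0 in 48p-HFSCs.

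Other subunits of the complexes numbered 29, of which 24 were tested, 0 were called higher and 3 lower, beside 10.8% and 9.15% of all genes tested. At an unadjusted limma p-value under 0.05, 0 were higher and 6 lower, and the median log2 difference was -0.09. Over all 11018 genes 37.4% had such a p-value, 2039 higher and 2079 lower, so that nothing particular to the other subunits was read from the 6. All 3 called genes, Cbx6, Phc3 and Bcor, belong to PRC1, as do 18 of the 24 tested, so nothing particular to PRC1 was read from the 3. Phc3, one of the polyhomeotic proteins that link PRC1 complexes into clusters, fell from 3.03 and 2.49 FPKM in 10p-HFSCs to 0.176 and 0.068 FPKM in 48p-HFSCs, a log2 difference of -1.74 (-3.72 with 0.1 added to FPKM; limma adjusted p = 0.0060), a call that missed the threshold without replicate 1 or 2 of 10p-HFSCs (0.068 and 0.058). The 3 polyhomeotic genes summed to 80.15 and 96.15 FPKM in 10p-HFSCs and to 111 and 128 FPKM in 48p-HFSCs. Bcor, the corepressor of a variant PRC1 that holds Pcgf1, was at 7.95 and 4.39 FPKM in 10p-HFSCs while both 48p-HFSC libraries listed it at 0 (limma adjusted p = 0.0035, called under every alternative run). No fold is given for it, and Pcgf1 itself was at 13.2 and 13.3 FPKM against 11.6 and 16.2 (limma adjusted p = 0.92). Of the 10 other PRC2 genes, 6 were tested and 0 called, and 0 had an unadjusted p-value under 0.05. They were Rbbp4, Rbbp7, Jarid2, Aebp2, Phf1 and Mtf2, with log2 differences from -0.79 to 0.28. Phf19 did not exceed 0.017 FPKM in any library, Lcor exceeded 1 FPKM in 1 library, at 1.502, and Epop, Ezhip and the PRC1 gene Scml2 were listed at 0 throughout.

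Enzymes that oppose Polycomb did not pass the test. Bap1 and its partners Asxl1 and Asxl2, which remove ubiquitin from histone H2A, and the histone H3 demethylases Kdm6a and Kdm6b numbered 5, with 0 called, 0 at an unadjusted limma p-value under 0.05 and log2 differences from -0.79 to 0.39. Of 9 genes of the MLL complexes, which place an activating methyl mark on histone H3, 0 were called and 0 had an unadjusted limma p-value under 0.05. Their median log2 difference was -0.37, beside -0.03 over all genes tested. The Kmt2 genes among them had transcripts of 8469 to 19823 bases, and over all transcripts above 4000 bases the median was -0.283. Over all genes 19.9% were called and 37.4% had such an unadjusted p-value. With only 5 and 9 genes, nothing particular to these lists was read from the counts of 0.

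The Ink4 locus, a classical target of both complexes, was measured by Cdkn2a and Cdkn2b. Cdkn2b, which encodes the cyclin D kinase inhibitor INK4B, rose from 26.0 and 33.4 FPKM in 10p-HFSCs to 110 and 119 FPKM in 48p-HFSCs, a difference of 1.92 on the log2 scale (standard error 0.27, limma adjusted p = 0.0065), a call that was lost without replicate 1 or 2 of 10p-HFSCs (0.18 and 0.12). The log2 difference of Cdkn2b was 1.43 with correction for transcript length and GC content and 1.36 under rescaling to TPM. Cdkn2a, whose single value covers the transcripts of both INK4A and ARF, was at 9.28 and 8.83 FPKM in 10p-HFSCs and at 15.2 and 28.6 FPKM in 48p-HFSCs. Its log2 difference of 1.12 did not pass the test (limma adjusted p = 0.076), although the groups did not overlap. It was 0.52 with correction for transcript length and GC content (limma adjusted p = 0.19), 0.58 under rescaling to TPM (0.55) and 0.69 without replicate 2 of 48p-HFSCs (0.12), while it passed the test under quantile normalization (0.049) and, at 1.56, without replicate 1 of 48p-HFSCs (0.018). The annotated transcript of Cdkn2a measured 895 bases, and over all transcripts under 1000 bases the median difference between 48p- and 10p-HFSCs was 0.689. A link between the levels of the 9 Polycomb genes and those of this locus was not tested.

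Genes of epidermal differentiation were 9 by list, of which 4 were tested, 3 called higher and 0 lower, beside 10.8% and 9.15% of all genes tested. Sprr1b, a protein of the cornified envelope, rose from 15.1 and 12.8 to 208 and 242 FPKM (log2 difference 3.92, limma adjusted p = 0.00092). Tgm1, the transglutaminase that cross-links the envelope, rose from 0.037 and 0.027 to 6.57 and 11.1 FPKM (log2 difference 3.21, or 6.04 with 0.1 added to FPKM, limma adjusted p = 0.0021), and Sprr1a rose from 0.998 and 0.813 to 15.9 and 8.01 FPKM (limma adjusted p = 0.0064). These 3 calls were lost without either 10p-HFSC library, with limma adjusted p-values from 0.056 to 0.15. The transcripts of Sprr1b and Sprr1a measured 830 and 806 bases. With correction for transcript length and GC content their log2 differences were 3.30 and 1.99, beside 3.92 and 2.70 without it. Krt1, Krt10 and Lor were listed at 0 in all 4 libraries. Merkel cell genes, which are repressed by PRC2 in the epidermis, were 6 by list. Of the 4 tested, 1 was called higher and 1 lower, beside 10.8% and 9.15% of all genes tested. Krt18 was called higher, from 0.286 and 0.285 to 329 and 1120 FPKM (limma adjusted p = 0.00092), and Sox2 was called lower, from 14.3 and 13.8 FPKM to values listed at 0 in both 48p-HFSC libraries. Krt8 was higher in both late libraries but not called, at 377 and 323 against 956 and 1519 FPKM (log2 difference 1.78, limma adjusted p = 0.053). Isl1 was not called, at 7.49 and 8.70 against 7.16 and 5.05 FPKM, and Atoh1, the factor that specifies Merkel cells, was listed at 0 throughout.

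Because Ezh2 is known to follow proliferation, 15 proliferation genes were read out beside it. Of these, 0 were called higher and 6 lower, beside 10.8% and 9.15% of all genes tested, with a median log2 difference of -0.76 beside -0.03. The 6 were the replication genes Mcm4, Mcm5, Mcm7, Mcm2, Mcm3 and Pcna, with log2 differences from -2.27 for Mcm4 to -1.03 for Mcm3. Mcm5 fell from 34.1 and 29.1 to 7.06 and 7.52 FPKM (limma adjusted p = 0.0051). All 6 calls were lost without either 10p-HFSC library, and those of Mcm4, Mcm7, Mcm3 and Pcna also without replicate 2 of 48p-HFSCs. The calls of Pcna and Mcm3 were lost without the filter on low values as well, and Mcm3 reached -1.60 under TPM without passing the test (limma adjusted p = 0.088). The mitotic genes Ccnb1 and Cdk1, named after their values were seen, were at 81.6 and 71.7 against 52.0 and 93.7 FPKM and at 50.4 and 47.8 against 51.1 and 104.7 FPKM, and were not called. Of the 15 genes, 13 had a lower and 2 a higher mean in 48p-HFSCs. By cell counts and BrdU uptake, the study reported proliferation as kept up or increased over long-term passage. The RNA levels given here were therefore not read as a rate of division. The part of proliferation in the levels of Ezh2 was not tested.

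On the log2(FPKM + 1) scale the member with the largest difference was Bmi1. With 0.1 added instead, Cbx7 came first (-1.57 against -1.47 for Bmi1), as it did by the ratio of means and without replicate 2 of 48p-HFSCs (-1.28 against -1.02). By the root mean square difference of centred log2(FPKM + 1) values over the 4 libraries, the tested genes nearest to Bmi1 were Rfwd3 (0.018), Zfp697 (0.018) and Slc38a7 (0.034). Rfwd3 was at 22.0 and 21.2 FPKM in 10p-HFSCs and at 10.4 and 5.68 FPKM in 48p-HFSCs. All 3 were called lower, and all 3 calls were lost without the filter on low values and without either 10p-HFSC library, those of Rfwd3 and Slc38a7 also under TPM and without replicate 2 of 48p-HFSCs, and that of Zfp697 with 0.1 added to FPKM. The likeness over 4 libraries is given as a description. Since the 3 genes were chosen by likeness to Bmi1 in the same values, their calls follow largely from that choice.

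**Figure D4:**
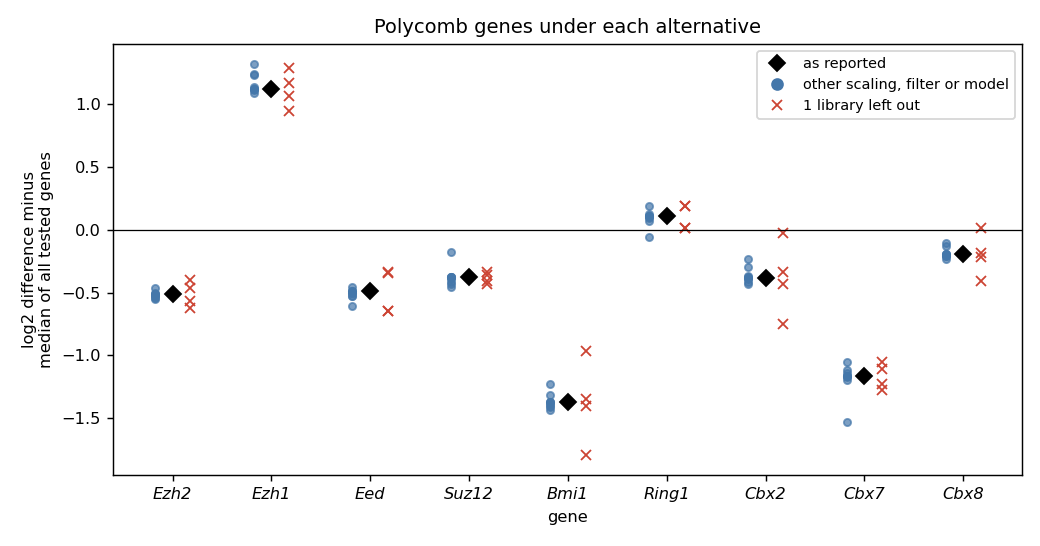
Log2 difference between 48p- and 10p-HFSCs minus the median over all tested genes (y axis) for the 9 Polycomb genes, as reported (black diamonds), under other scalings, filters and models (blue circles) and with 1 library left out (red crosses). Relative to the median, Ezh1 stays between 0.95 and 1.32, Bmi1 between -1.79 and -0.96 and Cbx7 between -1.53 and -1.05.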

How the data were processed

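Libraries were made from polyadenylated RNA with a stranded kit. The authors mapped reads to mm10 and deposited 1 FPKM value per gene symbol and library. Per the labels the tools were TopHat2 2.1.1, Bowtie2 2.2.8, SAMtools 0.1.18 and Cuffdiff 2.2.1, while the study's methods name Cufflinks and other versions of Bowtie2 and SAMtools. The annotation, the strand setting and the treatment of multi-mapped reads are not given in the sources used here, so reads of close paralogs could be split. Depth in reads is unknown, and intervals of counting error were not made.

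Here, limma 3.58.1 (R 4.3.3, eBayes with a variance trend) was run on log2(FPKM + 1) for the 11018 genes that reached 1 FPKM in 2 or more libraries, without further scaling, with Benjamini-Hochberg adjustment over all of them. Paralog ratios were tested by exact permutation with scipy. Positions and transcript lengths came from GENCODE M21 (GRCm38, the assembly of mm10), and promoters from RefSeq, which held 8 of the 9 genes. Epop and Ezhip were matched through older symbols, and Flg was not matched. On simulated data of 11018 genes with 200 changed, limma called 91.3% of changes of 3 and 11.3% of changes of 1.5 on the log2 scale. Of those calls, 3.57% were false. The simulation changed far fewer genes than the 2197 called here, and its noise was independent between libraries. These rates therefore need not hold for these data, and a gene that was not called may still have changed.

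The members and lists were chosen with earlier results of these data known. The genes named are the 9 members, up to 6 called genes per list, Cdkn2a, Cdkn2b, Rnf2, Pcgf2 and Cbx6, and the 3 genes nearest to the member with the largest difference. Markers came from lists by cell type. Pcgf1, Pcgf6, Ccnb1, Cdk1, Rrm2, Mki67, Krt8, Isl1, Lcor, Phf19 and the genes at 0 were named after their values were seen. Alternatives were another pseudocount, other filters, scalings, thresholds and variance prior, the replicate number as a block, each library left out and, added later, a correction for transcript length and GC content by splines. A further gene of the lists is not reported here.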

Additional observations from a re-analysis of the deposited data

How the results depend on the processing

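For the 9 Polycomb genes, log2 differences kept their sign under every alternative run, except for Ring1, which turned to -0.47 under rescaling to TPM and to -0.11 with the length and GC correction, and ran from -0.036 to 0.19 with 1 library left out (-0.015 without replicate 1 of 10p-HFSCs). Pcgf2 turned to -0.33 under TPM. The count called higher among the 9 genes went from 1 to 0, and that called lower from 2 to 0, both without the filter on low values and under TPM. Over all genes, 623 were called higher under TPM and 637 lower without the filter. Leaving out 1 library at a time, the counts ran from 0 to 1 higher and from 0 to 2 lower for the 9 genes, from 1 to 5 lower for the other subunits, and from 35 to 1936 higher and from 140 to 1875 lower over all genes, lowest without a 10p-HFSC library, where a single early library is assumed to vary like the late ones. Without the filter 16679 genes were tested, and otherwise the cause of these shifts was not tested.

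A replicate block gave 1613 calls higher and 1497 lower, beside 1189 and 1008 without it, the same numbers of the 9 genes were called (1 higher, 2 lower), and Cdkn2a was called (limma adjusted p = 0.010). Deviations of same-numbered libraries had a correlation of 0.41 across genes, but with 2 pairs and no shared origin in the labels the numbers were not taken as a pairing.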
